A study of Mus musculus with 9 samples.

Results

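The Sox transcription factors described here are Sox4, Sox5, Sox6, Sox7, Sox9, Sox12, Sox13, Sox17 and Sox18, 9 of the 20 Sox family genes, Sry included, that the probe annotation names and of the 19057 genes it names in all. They were chosen by gene symbol, which gave 26 of the 45281 probes. The choice was made with earlier results of these data known, and whether group differences entered it is not stated. Counts and medians of the members below therefore only describe them. Each of the 9 had at least 1 probe detected on 8 or 9 of the 9 arrays, and none of the other 11 family genes had one on more than 3, so detection separated the chosen genes from the rest and is given below as a description without a test. Total RNA of whole liver was measured on Illumina bead arrays, 3 for each of 3 groups of C57BL/6 mice, all male and 8 weeks of age. One group was euthyroid control mice. The second was hyperthyroid after 3 days of the thyroid hormone triiodothyronine (T3). The third had the same T3 treatment and FoxO1 knockdown in the liver, made by injecting FoxO1 siRNA into the tail vein under high pressure (hydrodynamic injection), a route that brings nucleic acid mainly into hepatocytes. No group is labelled as injected with a control siRNA, nor is it said whether euthyroid and T3 mice had any injection, so the siRNA and the injection cannot be told apart. Whether every array is a mouse of its own is also not stated, and the p-values then cover the spread among arrays, which may be technical. The dose of T3 is not given in the sources used here.

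Sox proteins bind DNA through a high-mobility-group (HMG) box related to that of Sry, bend it, and usually act together with a partner factor bound nearby. The family is divided into subgroups by sequence. SoxC factors (Sox4, Sox12 and Sox11) act in progenitor cells and Sox4 also in bile duct development, and SoxD factors (Sox5, Sox6 and Sox13) have no activation domain of their own and modify the action of other factors. The SoxE factor Sox9 marks bile duct cells in the liver and is also induced in activated hepatic stellate cells, while SoxF factors (Sox7, Sox17 and Sox18) belong to blood and lymph vessel endothelium. The arrays measured whole liver RNA, in which fewer cells of a type and less RNA per cell cannot be told apart.

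Promoter sequences were available from RefSeq (GRCm38.p6) for 5 of the 9 members (Sox4, Sox5, Sox6, Sox12 and Sox13), with 10 start sites in all. Those of Sox4, Sox12 and Sox5 are shown because each of these genes had a change, given below, that passed the test under every alternative processing tried on it. Each runs 5′ to 3′ on the minus strand from 250 bases before the start site to 50 after it, at chr13:28953650-28953949 for Sox4, chr2:152397997-152398296 for Sox12 and chr6:143947057-143947356 for Sox5. Capitals mark the hexamer AGGTCA, which thyroid hormone receptors bind, in Sox4, the FoxO motif TGTTTAC in Sox12, and ACAATG, a Sox motif, in Sox5.
Sox4: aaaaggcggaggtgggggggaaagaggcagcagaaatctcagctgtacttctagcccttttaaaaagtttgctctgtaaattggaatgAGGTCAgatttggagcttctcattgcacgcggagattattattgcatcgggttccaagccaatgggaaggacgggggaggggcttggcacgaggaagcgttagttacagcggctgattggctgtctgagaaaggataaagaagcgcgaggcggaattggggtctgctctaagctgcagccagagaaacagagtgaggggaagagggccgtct
Sox12: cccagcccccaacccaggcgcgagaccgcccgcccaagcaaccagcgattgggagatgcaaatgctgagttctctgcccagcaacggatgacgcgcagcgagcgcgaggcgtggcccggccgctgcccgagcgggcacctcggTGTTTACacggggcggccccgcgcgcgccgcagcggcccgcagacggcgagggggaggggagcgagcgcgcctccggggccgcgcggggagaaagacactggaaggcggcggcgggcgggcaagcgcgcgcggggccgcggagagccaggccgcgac
Sox5: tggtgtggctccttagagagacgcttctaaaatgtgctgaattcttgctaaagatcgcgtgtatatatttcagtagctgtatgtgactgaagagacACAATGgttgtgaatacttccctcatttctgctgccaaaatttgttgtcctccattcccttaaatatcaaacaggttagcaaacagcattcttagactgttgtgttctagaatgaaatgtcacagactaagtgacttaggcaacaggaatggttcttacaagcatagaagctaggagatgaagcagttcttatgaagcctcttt
All motifs were searched on both strands. TGTTTAC stood in 1 of the 10 member promoters, that of Sox12, from base -107, and in 3.65% of all 32851 promoters in the table. AGGTCA stood in 3 of the 10, in Sox4 from base -162 and in 2 start sites of Sox6, against 16.3% of all promoters. ACAATG stood in 3 of the 10, in Sox5 from base -154 and in 2 start sites of Sox6, against 12.6% of all. The direct repeat of AGGTCA with any 4 bases between the copies was in none of the 10 and in 0.0152% of all. The Sox4 and Sox5 windows had 12 and 3 CG dinucleotides and the Sox12 window had 47.

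Detection was uneven among probes of the same gene. Of the 26 member probes 17 passed the filter (detection p under 0.05 on at least 3 arrays), and 6 were detected on no array. The brightest probe of Sox5, Sox6, Sox7, Sox9, Sox12, Sox17 and Sox18 was detected on all 9 arrays, and that of Sox4 and Sox13 on 8, with a T3 array missing in both. These brightest probes gave the values of each gene below. Sox6 was detected on all 9 arrays by a probe annotated to a cDNA clone, while its 3 probes for the RefSeq transcript were detected on 0, 0 and 2 arrays and its remaining clone probe on 0. Whether the detected clone probe measures Sox6 mRNA was not tested, and the Sox6 values below are those of that probe. Sox5 had 4 probes detected on all 9 arrays. Its 2 others, annotated to the same RefSeq transcript as its brightest probe, were detected on 0 and 1. The 4 probes of Sox12 are annotated to the same RefSeq transcript, and were detected on 9, 4, 3 and 0 arrays. Why probes of the same transcript differed was not tested. Just outside the members stood Sox14, a SoxB factor of the nervous system, detected on 3 arrays by 1 of its 2 probes and called in no comparison, and Sox8, a SoxE factor like Sox9, detected on 2. Sox2, Sox11, Sox15 and Sox21 had no probe detected on more than 1 array, and Sry, Sox1, Sox3, Sox10 and Sox30 were detected on none.

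**Figure D1:**
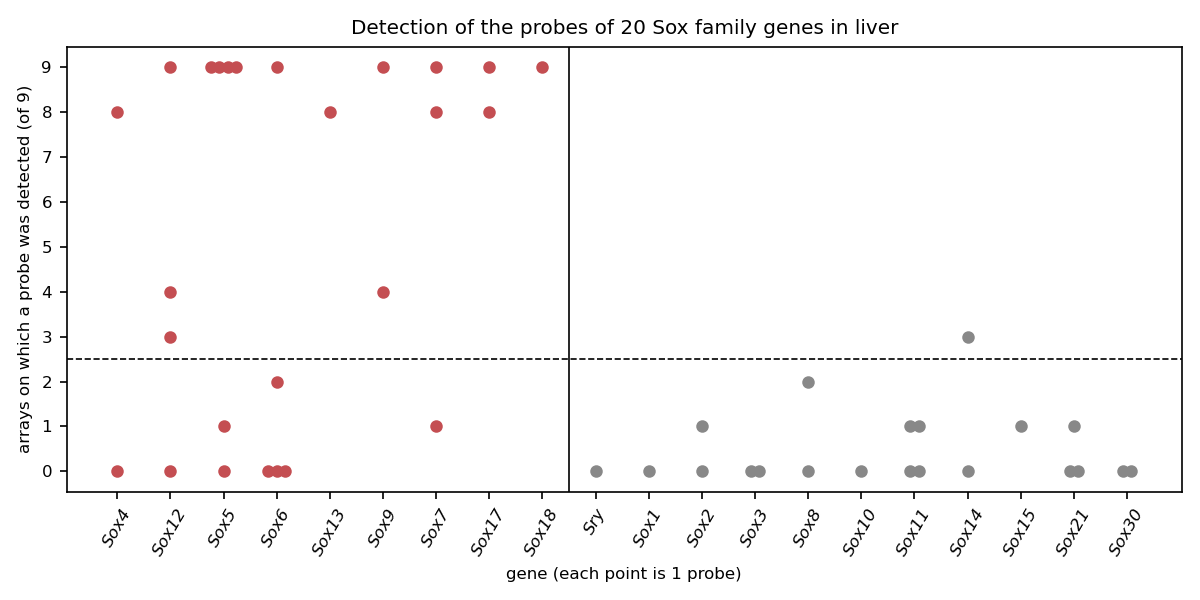
Number of arrays, of 9, on which each probe of the 20 Sox family genes was detected (detection p under 0.05). Each point is 1 probe, members are on the left in red, the other family genes on the right in grey, and the dashed line separates probes that passed the filter (above) from those that did not; each member has a probe on 8 or 9 arrays, and Sox14 is highest among the others at 3.

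The depth of the arrays was similar, with a median probe signal of 109 to 127 and 36.4% to 40.5% of probes detected, and the number of arrays limits the precision. Foxo1, which the siRNA targets, had mean normalised log2 signals of 8.77 ± 0.08 on the euthyroid arrays, 9.54 ± 0.29 on the T3 arrays and 8.47 ± 0.06 on the siRNA arrays (SD over 3 arrays each), a log2 change of -1.07 ± 0.14 (SE, limma adjusted p = 0.00172) between the last 2 groups. Against euthyroid liver Foxo1 was higher with T3 (0.77 ± 0.14, adjusted p = 0.0082). It was not called between siRNA and euthyroid liver (-0.30 ± 0.14, adjusted p = 0.152). In the same fit 10408 genes were tested. Changes below are log2 differences of normalised signals with the SE of that fit, and each adjusted p takes in every gene tested unless it is said to be over the probes.

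Setting T3 against euthyroid liver asks how the members differ after 3 days of thyroid hormone. All 9 Sox members had a lower mean signal with T3, and 5 of them, Sox4, Sox5, Sox12, Sox9 and Sox18, fell past the threshold (adjusted p under 0.05). None rose, and none was higher at an unadjusted p under 0.05 in the limma fit. Over all genes 18.4% were called in this comparison, 10.6% lower and 7.8% higher. The median change was -0.55 for the 9 members and -0.05 for all genes. The groups did not overlap for 6 members, against 40.7% of all genes. The count of 5 was 1 without euthyroid replicate 1 (Sox12) and 3 without euthyroid replicate 3 (Sox4, Sox5 and Sox12). Calls over all genes were then 894 and 1150 in place of 1917.

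Of the SoxC genes, Sox4, which acts in progenitors and in the response to TGF-beta, had signals of 186, 172 and 164 in euthyroid liver, 121, 162 and 143 with T3, and 227, 176 and 221 with T3 and siRNA. After normalisation every T3 array lay below every array of the other groups. Sox4 fell 1.89-fold with T3 (-0.92 ± 0.19, adjusted p = 0.0132; 0.0527 without euthyroid replicate 1), and was not detected on T3 replicate 1. Its second probe was detected on no array. Sox12, a close relative of Sox4 and Sox11, had signals of 588, 591 and 560 in euthyroid liver, 318, 555 and 355 with T3, and 514, 474 and 612 with T3 and siRNA. On the normalised scale its T3 arrays again lay below all 3 euthyroid arrays. Sox12 was 1.62-fold lower with T3 (-0.69 ± 0.13, adjusted p = 0.00964), the call of this comparison that passed in all 19 alternatives. Both further probes of Sox12 that passed the filter were detected on all 3 euthyroid arrays and on no T3 array. They passed through the euthyroid arrays, where they were high, so a difference from T3 was built in and they are not counted as support.

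Of the SoxD genes, Sox5, best known as a partner of Sox9 in cartilage, had signals of 1502, 1427 and 1185 in euthyroid liver, 679, 873 and 872 with T3, and 940, 684 and 677 with T3 and siRNA. The 3 euthyroid arrays stood above all 6 others. Sox5 was 1.77-fold lower with T3 (-0.82 ± 0.18, adjusted p = 0.0156; 0.06 without euthyroid replicate 1). Its other detected probes gave -0.60 (adjusted p = 0.0358 over the probes), -0.45 (adjusted p = 0.178) and -0.23 (adjusted p = 0.521), all below 0. Sox6, the SoxD factor known for silencing embryonic globin genes, had signals of 260, 252 and 190 in euthyroid liver, 201, 269 and 214 with T3, and 210, 188 and 180 with T3 and siRNA. After normalisation its T3 arrays lay within the euthyroid range (-0.12 ± 0.18, adjusted p = 0.696, 95% interval -0.53 to 0.30). Sox13 had 1 probe, with signals of 196, 162 and 146 in euthyroid liver, 135, 172 and 128 with T3, and 146, 162 and 168 with T3 and siRNA. Its T3 arrays lay below the euthyroid ones after normalisation, but the change of -0.71 ± 0.22 did not pass (adjusted p = 0.0552), and T3 replicate 3 was not detected.

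Sox9, the bile duct and stellate cell factor, had signals of 553, 544 and 602 in euthyroid liver, 376, 481 and 416 with T3, and 731, 777 and 903 with T3 and siRNA. The T3 arrays were the lowest 3 of the 9. Sox9 fell 1.45-fold with T3 (-0.53 ± 0.13, adjusted p = 0.0237). That call was lost when euthyroid replicate 1 or 3 or T3 replicate 2 or 3 was left out (adjusted p = 0.0552, 0.0643, 0.0662 and 0.054) and with the mean of its probes (adjusted p = 0.108). The second probe of Sox9 was detected on 1 euthyroid array and on no T3 array, so it gave no fold between these groups.

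Among the SoxF genes of endothelium, Sox18, a factor of lymphatic and blood vessel development, had signals of 280, 311 and 261 in euthyroid liver, 209, 251 and 250 with T3, and 300.3, 299 and 335 with T3 and siRNA. Its T3 arrays were the lowest 3 after normalisation. Sox18 was 1.36-fold lower with T3 (-0.45 ± 0.12, adjusted p = 0.0302), a call that 9 of 19 alternatives lost with adjusted p-values up to 0.0927, among them the omission of any euthyroid array or of T3 replicate 1 or 2. Sox7 had signals of 185, 158 and 154 in euthyroid liver, 130, 182 and 142 with T3, and 179, 177 and 206 with T3 and siRNA. It overlapped between T3 and euthyroid liver on T3 replicate 2 (-0.55 ± 0.18, adjusted p = 0.0679), and its second detected probe gave -0.43 (adjusted p = 0.0674 over the probes). Sox17, a factor of endoderm and arterial endothelium, had signals of 186, 163 and 183 in euthyroid liver, 137, 202 and 176 with T3, and 187, 154 and 178 with T3 and siRNA. The 3 groups overlapped (T3 minus euthyroid -0.31 ± 0.24, adjusted p = 0.412, 95% interval -0.85 to 0.24).

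**Figure D2:**
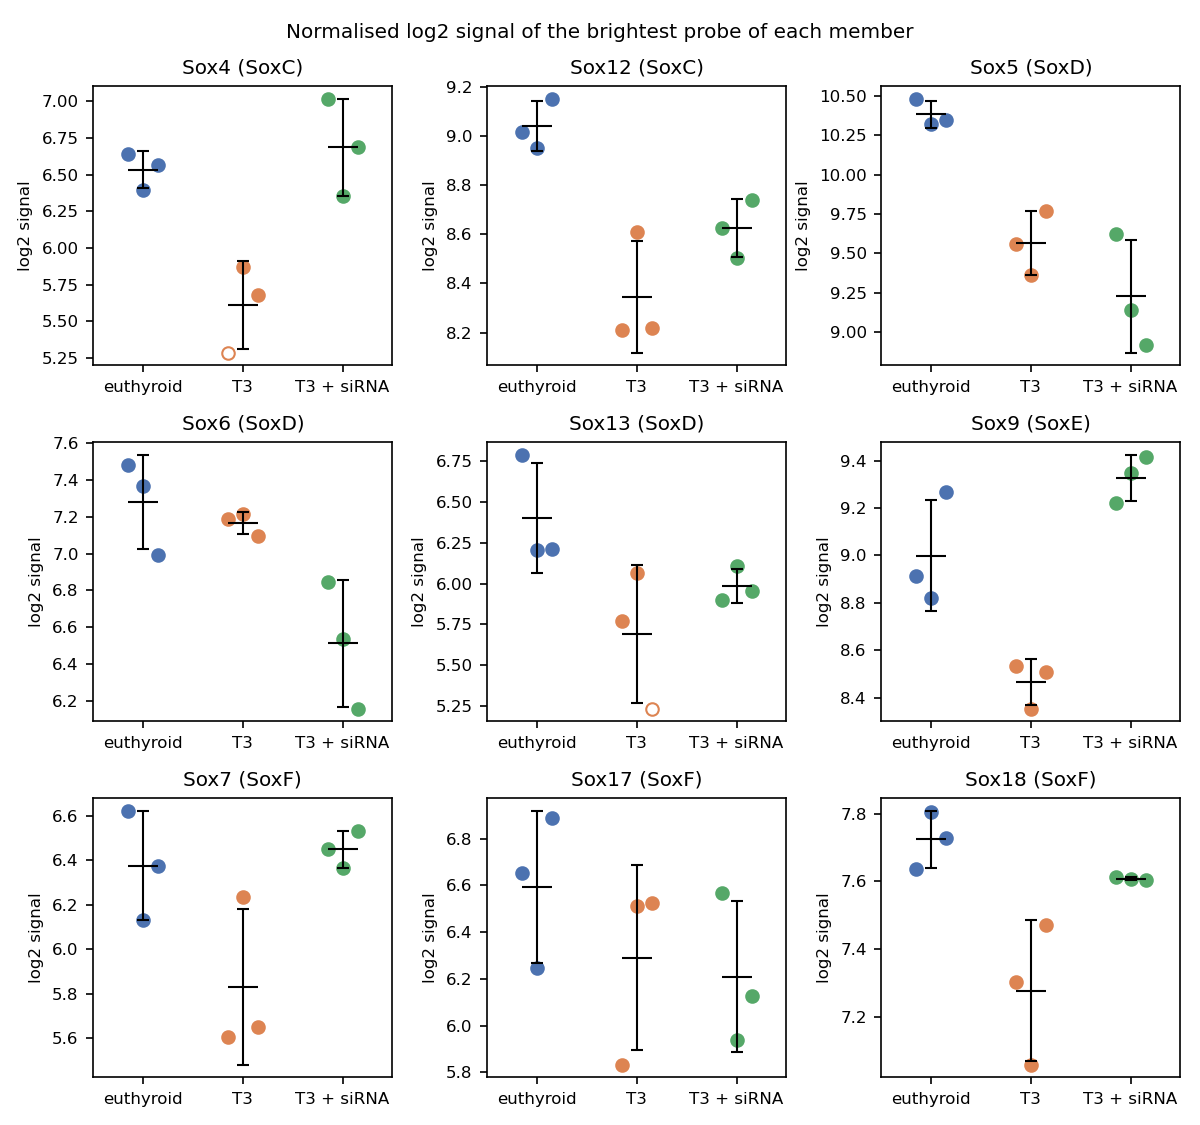
Normalised log2 signal of the brightest probe of each member in the 3 groups, with the Sox subgroup in brackets. Points are arrays (open where the probe was not detected), and the bars give the mean and SD of 3 arrays; each panel has its own vertical range, which does not start at 0. Sox4 and Sox9 are lowest on the 3 T3 arrays, and Sox5 is highest on the 3 euthyroid arrays.

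The comparison of T3 plus siRNA with T3 alone asks which members differ when FoxO1 is knocked down in hyperthyroid liver. Sox4, Sox9 and Sox7 rose and Sox6 fell, so that 4 of the 9 members passed the threshold. Over all genes 19.5% were called, 11.7% higher and 7.72% lower. The median change was 0.30 for the members and 0.01 for all genes, and the groups did not overlap for 5 members, against 38.4% of all genes. The count of 4 was 2, Sox4 and Sox9, without T3 replicate 1, T3 replicate 3, siRNA replicate 2 or siRNA replicate 3. Calls over all genes were then 1560, 1333, 1601 and 1171 in place of 2025. This comparison and the previous one share the 3 T3 arrays, so a low value on those arrays moves both, in opposite directions.

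Sox4 was 2.10-fold higher with the siRNA than with T3 alone (1.07 ± 0.19, adjusted p = 0.00642) and passed in all 18 alternatives that kept its probe. Its size rests on the background correction, with a log2 change of 0.49 without it. The 3 siRNA arrays were all above the 3 T3 arrays and overlapped the euthyroid ones. Sox12, the other SoxC gene, did not pass (0.28 ± 0.13, adjusted p = 0.169), and its siRNA and T3 arrays overlapped.

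Sox9 rose 1.82-fold with the siRNA (0.86 ± 0.13, adjusted p = 0.00319), with all 3 siRNA arrays above all 3 T3 arrays, and this call passed in all 19 alternatives. On its second probe Sox9 had signals of 121, 130 and 132 with T3, none of them detected, and 142, 150 and 189 with the siRNA, all detected. The second probe passed the filter through the siRNA arrays, so that difference was built in and is no support for the first probe. The alternative with the mean of the probes takes it in and is no support either.

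The SoxD genes went the other way or did not pass. Sox6 was 1.57-fold lower with the siRNA (-0.65 ± 0.18, adjusted p = 0.0369), with each siRNA array below each T3 array. That call was lost in 9 of 19 alternatives, among them median scaling (-0.38, adjusted p = 0.274) and the omission of euthyroid replicate 2, of any T3 array or of siRNA replicate 2 or 3, with adjusted p-values of 0.0534 to 0.106 without 1 array. Sox5 gave -0.34 ± 0.18 (adjusted p = 0.217), and its 3 other detected probes gave -0.42, -0.42 and -0.16. Sox13 gave 0.30 ± 0.22 (adjusted p = 0.381). For the SoxF genes, Sox7 was 1.54-fold higher (0.62 ± 0.18, adjusted p = 0.0448), with no overlap between the groups. That call was lost in 12 of 19 alternatives, with adjusted p-values up to 0.126, including the omission of euthyroid replicate 3, T3 replicate 1 or 3 or any siRNA array, and the second detected probe of Sox7 gave 0.04 (adjusted p = 0.891 over the probes). Sox18 gave 0.33 ± 0.12 (adjusted p = 0.0784), with no overlap between siRNA and T3 arrays. The 2 probes of Sox17 differed in sign, with -0.08 ± 0.24 (adjusted p = 0.846) on the brighter one and 0.43 (adjusted p = 0.12 over the probes) on the other.

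**Figure D3:**
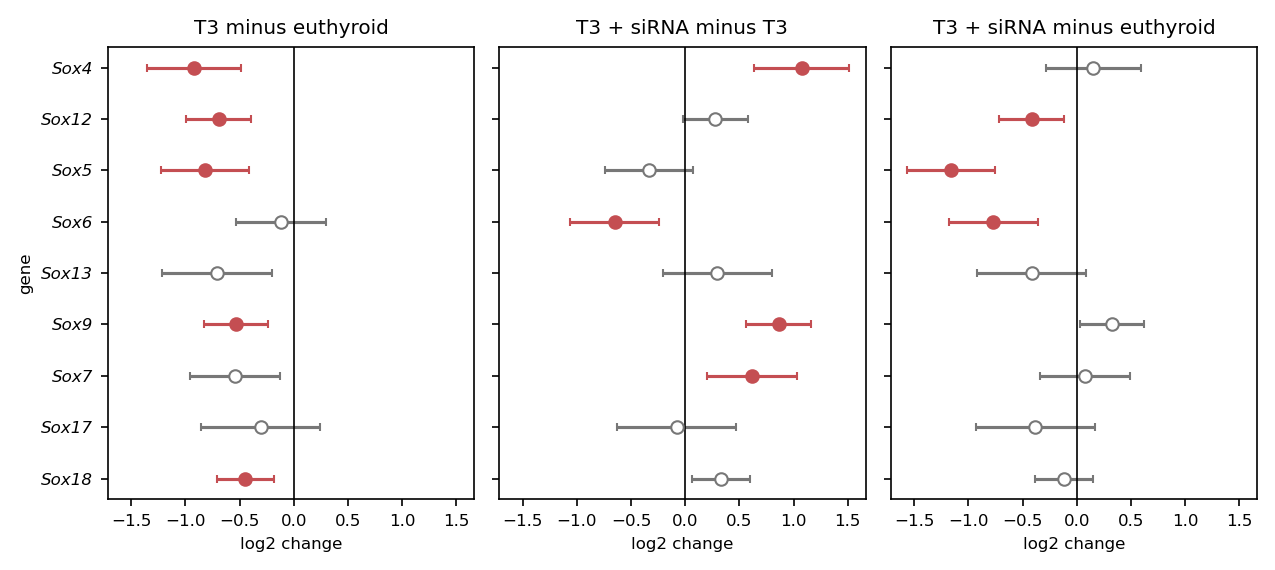
Log2 change of each member in the 3 comparisons, with 95% intervals of the limma fit over 10408 genes. Filled red points passed an adjusted p of 0.05, open grey points did not; in the left panel all 9 points lie below 0, and in the middle panel Sox4 has the largest rise at 1.07 and Sox6 the largest fall at -0.65.

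The comparison of T3 plus siRNA with euthyroid liver asks where the members stood after both treatments. Sox5, Sox6 and Sox12 were lower than in euthyroid liver and no member was higher, 3 of 9 called against 26.7% of all genes (13.3% lower and 13.4% higher). The median change was -0.38 for the members and -0.02 for all genes, and 5 members did not overlap between the groups, against 46.1% of all genes. The count was 1, Sox5, without euthyroid replicate 1 or 2 and with median scaling. Calls over all genes were then 1693, 1751 and 1778 in place of 2779.

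Sox5 was 2.23-fold lower than in euthyroid liver (-1.16 ± 0.18, adjusted p = 0.00272), in all 19 alternatives, and its other detected probes gave -0.87 (adjusted p = 0.0196 over the probes), -0.76 (adjusted p = 0.0117) and -0.65 (adjusted p = 0.0681). Sox6 was 1.70-fold lower (-0.77 ± 0.18, adjusted p = 0.0153). Sox6 was not called with median scaling (adjusted p = 0.103) or without euthyroid replicate 1 or 2 (0.0591 and 0.0538). Sox12 was 1.33-fold lower (-0.42 ± 0.13, adjusted p = 0.0455). That call was lost in 11 of 19 alternatives, among them median scaling (-0.26, adjusted p = 0.466), the replicate block (adjusted p = 0.0802) and the omission of any array but T3 replicate 2.

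The genes that rose with the siRNA relative to T3 did not pass against euthyroid liver, and their intervals allow a change. Sox4 differed by 0.15 ± 0.19 (adjusted p = 0.603, 95% interval -0.28 to 0.59), and Sox7 by 0.07 ± 0.18 (adjusted p = 0.805, 95% interval -0.34 to 0.49). Sox9 differed by 0.33 ± 0.13 (adjusted p = 0.0958, 95% interval 0.03 to 0.62). It was called higher with the mean of its probes, the dim second one included (0.49, adjusted p = 0.0178), and without euthyroid replicate 3 (0.46, adjusted p = 0.0311). The second probe passed the filter through the siRNA arrays, so the call with the mean of the probes was partly built in and is no support. Of the rest, Sox18 gave -0.12 ± 0.12 (adjusted p = 0.504), Sox13 -0.41 ± 0.22 (adjusted p = 0.201) and Sox17 -0.38 ± 0.24 (adjusted p = 0.273).

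Where a gene had several detected probes they could be compared within the gene. The 4 probes of Sox5 detected on all arrays had lower normalised means with T3 than in euthyroid liver, and lower again with the siRNA than with T3. Both detected probes of Sox7 and both of Sox17 were lower with T3 than in euthyroid liver, while the probes of Sox17 lay on both sides of T3 with the siRNA. The 17 probes that passed are not all probes of the members, and the further probes of Sox9 and Sox12 passed through 1 group, so no count is taken over them. In the fit over the 15754 named probes 18.8% of all probes were called between T3 and euthyroid liver, 16.1% between siRNA and T3 and 24.6% between siRNA and euthyroid liver.

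**Figure D4:**
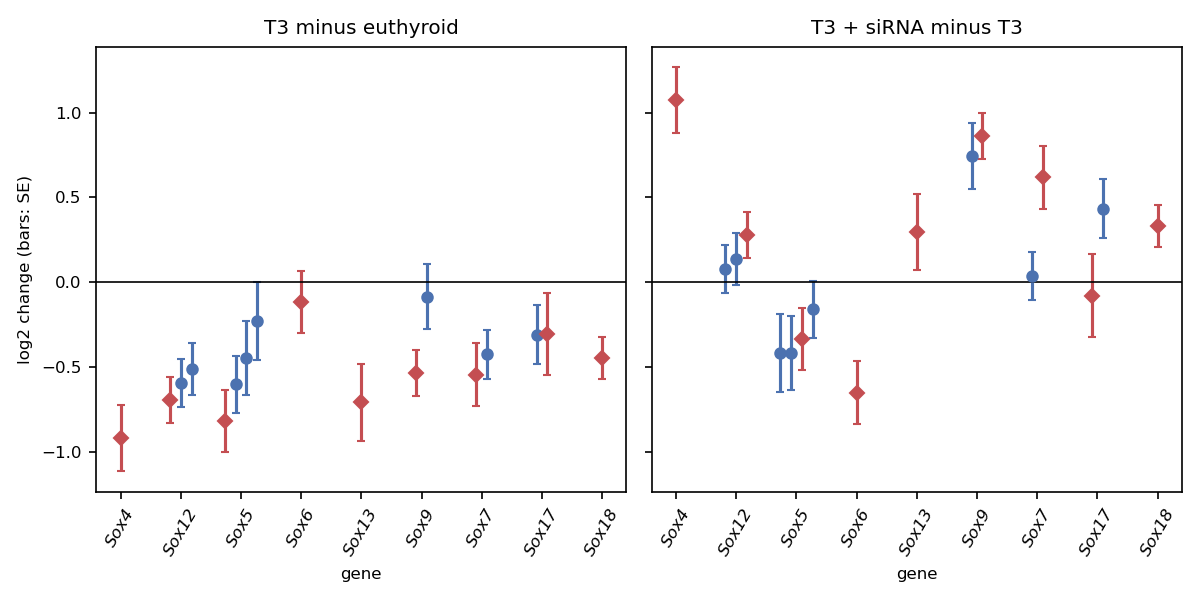
Log2 change of the 17 member probes that passed the filter, for T3 minus euthyroid (left) and T3 plus siRNA minus T3 (right), with bars for the SE. Red diamonds are the brightest probe of a gene and blue circles the further probes; the 4 probes of Sox5 lie below 0 in both panels, and the further probes of Sox9 and Sox12 were not detected on any T3 array.

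Lists of genes linked to the subgroups were set beside the members. Over all genes 18.4% were called with T3, 10.6% lower and 7.8% higher. With the siRNA against T3 the share was 19.5%, 11.7% higher and 7.72% lower. The lists were not tested against those shares. Of 7 measured genes linked to SoxC factors in other tissues, 1 fell with T3, Plxna2, a semaphorin receptor (-0.84 ± 0.11, adjusted p = 0.00278). With the siRNA against T3, 2 of the 7 rose, namely Marcks, an actin-binding substrate of protein kinase C (0.78 ± 0.12, adjusted p = 0.00339), and Ezh2, the histone H3 methyltransferase (0.99 ± 0.21, adjusted p = 0.0131). Ezh2 was detected on 7 arrays, so the size of its change depends on the background correction. The list's median was -0.23 with T3 and 0.25 with the siRNA. Of 14 measured vascular genes linked to SoxF factors, Egfl7, a protein secreted by endothelium (-0.60 ± 0.11, adjusted p = 0.00736) and the nuclear receptor Nr2f2 fell with T3 (-0.38 ± 0.11, adjusted p = 0.0398), and Prox1, which Sox18 induces in lymphatic endothelium and which hepatocytes also express, rose (0.62 ± 0.18, adjusted p = 0.047). With the siRNA against T3, 3 of the 14 rose and none fell. They were the adhesion molecule Vcam1 (1.62 ± 0.22, adjusted p = 0.00178), the Notch target Hey1 (1.41 ± 0.29, adjusted p = 0.0119) and Egfl7 (0.55 ± 0.11, adjusted p = 0.00911). Hey1 was detected on 8 arrays, and the size of its change likewise depends on the background correction. That list's median was -0.07 with T3 and 0.25 with the siRNA.

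Markers of the cell types in which these factors are known, and of others in the liver, were read in the same fit, where 18.4% of all genes were called with T3 and 19.5% with the siRNA against T3. Of 18 measured endothelial markers, Stab1 fell with T3 (-0.49 ± 0.10, adjusted p = 0.0128) and Emcn rose with the siRNA against T3 (0.68 ± 0.13, adjusted p = 0.00861), while the list's median was -0.20 and 0.20. The summed normalised signal of those markers, on a linear scale, was 16030 to 16980 on the euthyroid arrays, 14310 to 15990 with T3 and 13950 to 15570 with the siRNA, and of the 20 listed genes Bmp2 and Erg were detected on no array. Of 13 measured markers of stellate cells and fibroblasts, 5 fell with T3, and 7 rose and 2 fell with the siRNA against T3. Among the 7 was Tagln, detected on no T3 array and on all 3 siRNA arrays. Its rise was built in by the filter and is no support. Col1a1, a chain of type I collagen detected on 7 of the 9 arrays, changed by -2.47 ± 0.20 and 4.07 ± 0.20. Because Col1a1 was not detected on every array, the sizes of its changes depend on the background correction. The smooth muscle actin Acta2 changed by -2.07 ± 0.32 and 4.42 ± 0.32 (adjusted p from 1.81e-05 to 0.00481 for the 2 genes). In contrast Reln, a marker of resting stellate cells, changed by -0.62 ± 0.15 (adjusted p = 0.0206) and -0.57 ± 0.15 (adjusted p = 0.0274). The summed normalised signal of this list was 16790 to 19290, 14330 to 15100 and 15530 to 18690 in the 3 groups, and Hand2 was detected on no array.

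Of the bile duct markers only Krt7, Ddit4l and Cldn7 of the 8 genes on the array passed the filter. The defining markers Epcam and Cftr were detected on no array and Krt19 on 1. Krt7 was detected on 1 euthyroid, no T3 and all 3 siRNA arrays, through which it passed the filter. Ddit4l, detected on all 9 arrays, rose with the siRNA against T3 by 0.75 ± 0.15 (adjusted p = 0.0102). Cldn7, detected on 7 arrays, was not called there (0.03 ± 0.38, adjusted p = 0.971), and none of the 3 was called with T3. Whether Ddit4l comes from bile duct cells here was not tested. The summed signal of the 3 was 131 to 198 in euthyroid liver, 132 to 198 with T3 and 186 to 235 with the siRNA. That sum takes in Krt7, so part of its rise with the siRNA was built in by the filter. Of 10 measured macrophage markers 1 rose with T3 and 6 rose with the siRNA against T3 (median 0.67), with a summed signal of 10030 to 10570, 11660 to 13120 and 16660 to 20770. Clec4f, Vsig4 and Adgre1 of that list were detected on all 9 arrays and Cd5l on none. Vsig4 and Adgre1 were among the 6 that rose, while Clec4f (-0.10 ± 0.13, adjusted p = 0.617), Csf1r, Timd4 and Marco were not called. Of 11 measured hepatocyte markers 3 rose with T3 (Cps1, Hnf4a and Tdo2) and 2 fell (Asgr1 and Hpd). With the siRNA against T3, 4 fell (Alb, Hpd, Tdo2 and Hnf4a) and none rose. Alb had the largest fall (-1.08 ± 0.25, adjusted p = 0.017), and the list's median was -0.24. Among those not called were Apoa1 (0.004), Ttr (-0.06), Serpina1a (0.04) and Asgr1 (0.07). The summed hepatocyte signal was 241400 to 254100 in euthyroid liver, 244800 to 250000 with T3 and 225200 to 228800 with the siRNA. The part of these cell types in the changes of the Sox genes was not tested.

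**Figure D5:**
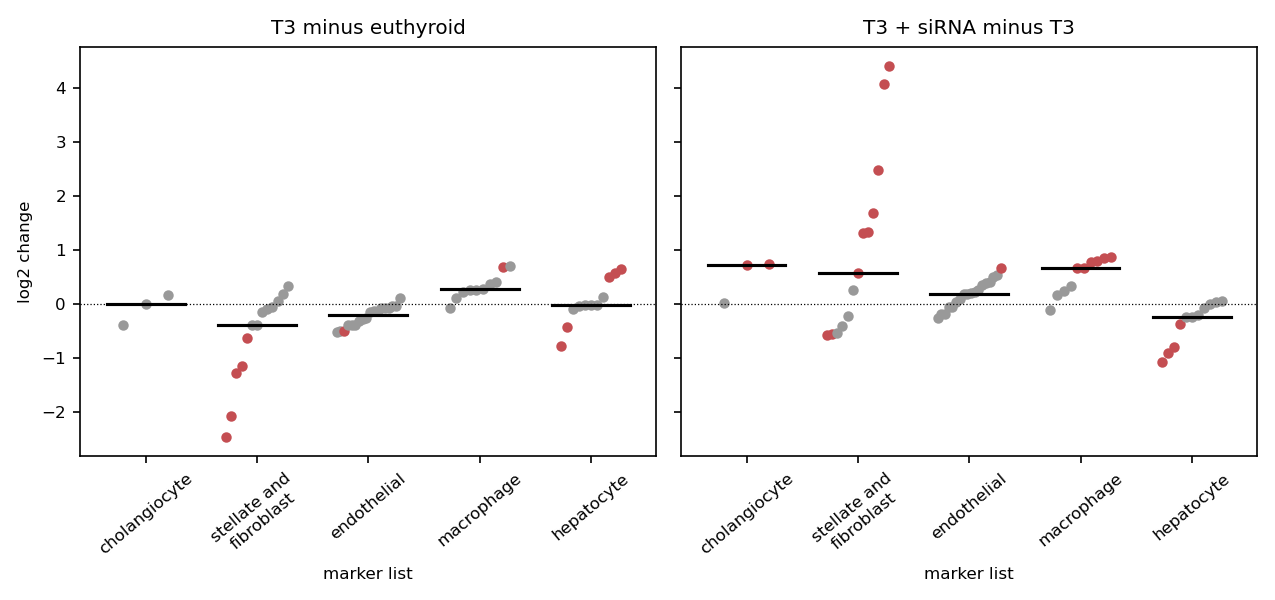
Log2 change of the measured genes of 5 marker lists, for T3 minus euthyroid (left) and T3 plus siRNA minus T3 (right). Each point is a gene, red where the adjusted p was under 0.05, and black lines are the list medians; the stellate and fibroblast list has the widest spread, from -2.47 for Col1a1 on the left to 4.42 for Acta2 on the right.

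The 2 members with the largest moderated F over the 3 groups were Sox5 (21.8) and Sox9 (21.7), and the genes nearest to each were found by the root mean square difference of log2 values centred on each gene's own mean over the 9 arrays. For Sox5 these were St6galnac3 (0.12), a sialyltransferase, Pdcd4 (0.139), an inhibitor of translation initiation, and Grtp1 (0.147). Pdcd4 was at 12.40 ± 0.10, 11.71 ± 0.18 and 11.46 ± 0.26 (SD, n = 3) in euthyroid, T3 and siRNA liver. For Sox9 they were Wtip (0.112) and Pdlim7 (0.121), both LIM domain proteins, and Ccsap (0.124). Wtip was at 8.08 ± 0.18, 7.67 ± 0.19 and 8.62 ± 0.10 (SD, n = 3) in the same order. The measure describes likeness over these arrays only.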

How the data were processed

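Liver RNA of 9 samples was hybridised to Illumina bead arrays, 3 for each of 3 groups, taken with their replicate numbers from the sample titles. The main table, as deposited, gives per probe and array a signal intensity on a linear scale without normalization. Beside each intensity the authors deposited its detection p-value. The authors' deposited second table holds intensities of the same arrays, quantile-normalized on a linear scale (sorted values within 0.0693% of the mean sorted signals), and was used as an alternative. The submitters' processing notes name Partek 6.6 without a step. Chip positions and scan dates were not used here, so batches could not be examined.

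In R 4.3.3 with limma 3.58.1, the neqc function did the background correction (no control probes are in the table, so their level was inferred through the detection p-values), with an offset of 16, then quantile normalization and log2. The offset makes changes of dim probes too small, and their size depends on the background correction. Probes with a detection p under 0.05 on at least 3 of 9 arrays were kept (18581 of 45281). Probe symbols came from the platform annotation: 34885 probes have 1 symbol, 18 several and 10378 none, and only the first kind was used. The brightest probe of each symbol gave 10408 genes. A single limma fit of the 3 group means used the 9 arrays together; tests were two-sided, and p-values were adjusted by Benjamini-Hochberg across the whole gene table. The same fit over the 15754 named probes gave the values of further probes. No pair of arrays held identical values. Deviations of arrays with the same replicate number showed little correlation (-0.0557 to 0.0284). Whether the numbers pair the samples is not stated, and a fit with the replicate number as a block was an alternative. Cross-hybridization between Sox genes was not examined.

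Named genes are the 9 members with their probes, Foxo1, up to 3 genes of each list by lowest adjusted p, and for the 2 members with the largest F the 3 genes nearest in pattern. Col1a1, Acta2, Reln, Tagln, the hepatocyte and macrophage markers, markers given without a change, and the other Sox genes named for detection are exceptions or were chosen after their values were seen. The members and lists were chosen with earlier results of these data known.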

Additional observations from a re-analysis of the deposited data

How the results depend on the processing

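Of the 12 calls of members in the 3 comparisons, 4 passed in every alternative that could test them and 8 were lost in at least 1, none with a change of sign. The 4 were Sox12 lower with T3, Sox4 and Sox9 higher with the siRNA than with T3, and Sox5 lower with the siRNA than in euthyroid liver. For Sox12 and Sox9 the mean of the probes takes in dim probes that passed the filter through 1 group. That alternative is therefore no support for these 2 calls. Of the 15 member comparisons not called, 6 passed in at least 1 alternative. When 1 array was left out, the number of members called ranged from 1 to 5 for T3 against euthyroid liver, from 2 to 4 for the siRNA against T3 and from 1 to 3 for the siRNA against euthyroid liver. The siRNA against T3 gave 2 calls without a filter on dim probes and 2 with only the 2 groups compared in the fit, and the siRNA against euthyroid liver gave 1 with median scaling. The cause was not tested, apart from the 6 arrays in place of 9 in the fit of 2 groups. Calls over all genes for the siRNA against T3 were 1573 of 19057 without the filter. They were 1370 with only the 2 groups, in place of 2025. Median scaling moved the median change of all genes from 0.01 to 0.17 for the siRNA against T3 and from -0.02 to 0.09 against euthyroid liver, and raised the share of calls that were higher from 60.3% to 88.7% and from 50.3% to 73.6%. It lowered that share from 42.4% to 32.9% for T3 against euthyroid liver, with 916 genes called in place of 1917, and against euthyroid liver the siRNA then gave 1778 in place of 2779. Leaving out 1 array brought the calls over all genes down to as few as 894, 1171 (of 2025) and 1693 in the 3 comparisons, without euthyroid replicate 1, siRNA replicate 3 and euthyroid replicate 1 in turn. With the replicate number as a block, 4, 3 and 2 members were called in the 3 comparisons in place of 5, 4 and 3. Sox18, Sox7 and Sox12 were lost (adjusted p = 0.0569, 0.0842 and 0.0802). Over all genes the block gave 1522, 1659 and 2364 calls in place of 1917, 2025 and 2779. With detection required on all 9 arrays, Sox4 and Sox13 were not tested. Dim signals limit Sox4, Sox7, Sox13 and Sox17, and the second probes of Sox9 and Sox12. Without background correction the log2 changes of dim probes were smaller, 0.49 for Sox4 and 0.27 for Sox7 with the siRNA against T3 and -0.31 for Sox13 with T3.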

Other observations

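Other HMG-box factors were measured beside the Sox genes. Of 11 listed genes of the TCF/LEF, TOX and related families 10 were on the array and 7 passed the filter. The share of all genes called was 18.4% with T3 and 19.5% with the siRNA against T3. Between siRNA and euthyroid liver it was 26.7%. Tox4, a chromatin-associated factor, fell with T3 against euthyroid liver (-0.64 ± 0.10, adjusted p = 0.00401) and higher with the siRNA than with T3 (0.34 ± 0.10, adjusted p = 0.0387). It stayed below euthyroid liver with the siRNA (-0.31 ± 0.10, adjusted p = 0.0424). Tcf7l2, which carries Wnt signals to DNA with beta-catenin, rose with T3 (0.49 ± 0.14, adjusted p = 0.0411) and did not pass with the siRNA against T3 (-0.42 ± 0.14, adjusted p = 0.0667). The list's median was -0.14 with T3 and -0.21 with the siRNA against T3. Lef1 was detected on no array.

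Of 14 listed matrix and cartilage genes linked to Sox9 in cartilage, 13 were on the array and 4 passed the filter. None was called between T3 and euthyroid liver or between siRNA and T3 in the limma fit, and at an unadjusted p under 0.05 the counts were 1 (Col27a1, lower with T3) and 0. Against euthyroid liver 1 of the 4, the fibrillar collagen gene Col27a1, was lower with the siRNA (-0.69 ± 0.17, adjusted p = 0.0157), as were 13.3% of all genes. Acan, Matn1 and Hapln1 were detected on no array, and Col2a1 on no more than 2.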
